A study of Mus musculus with 2 samples.

Results

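The lecticans, tenascins and hyaluronan matrix genes are the 10 genes *Vcan*, *Bcan*, *Ncan*, *Acan*, *Tnc*, *Tnr*, *Hapln1*, *Hapln2*, *Cd44* and *Ptprz1*. They were taken by symbol from a set of names and not by their values, although earlier results of these data were known when the set was chosen. All 10 were among the 23951 gene symbols present in both RNA-seq tables, and 8 of the 10 were among the 14199 genes compared, which had at least 1 FPKM in at least 1 library. FPKM counts sequenced fragments relative to 1000 bases of transcript and to 1000000 fragments mapped, so levels of different genes can be set side by side. The 8 genes had at least 1 FPKM in both libraries. *Hapln1* and *Acan* stayed below 1 FPKM in both and are given as values only.

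RNA was measured in whole optic nerve at postnatal day 12, in 1 library from control mice and 1 library from *Tcf7l2*ΔHMG mice. Control mice carried the genotype Tcf7l2 c/+; OLig1-cre, and mutant mice carried Tcf7l2 c/c; OLig1-cre. Both genotypes thus carried the Cre and at least 1 floxed allele. Tcf7l2 is a transcription factor of the Wnt pathway, and excision of its floxed exon 11 removes the HMG box that binds DNA. The Cre is driven from the *Olig1* locus in the oligodendrocyte (OL) lineage, and recombination in other cells was not measured here. The mice were of a mixed strain background, and the number and sex of the animals behind each library are not stated. *Tcf7l2* itself had 17.8 FPKM in control nerve (16.7 to 18.9) and 14.6 FPKM in mutant nerve (13.9 to 15.4). Since this gene value covers all exons, it does not check the deletion.

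Depth, read from the steps of the interval bounds, was 27623000 fragments for the control library and 39938000 for the mutant library. At these depths 3 fragments on 1 kb of transcript come to 0.109 and 0.0751 FPKM, respectively. With 1 library per genotype there is no measure of the spread between animals, and no gene was tested. Intervals below are the Cufflinks confidence intervals of each library, which cover sampling within that library only. In whole nerve, fewer cells of a type and less RNA per cell cannot be told apart.

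The extracellular matrix of the central nervous system is built around hyaluronan, a long sugar chain made at the cell surface. Lecticans are chondroitin sulfate proteoglycans that bind hyaluronan at one end and tenascins at the other, and link proteins of the Hapln family hold lectican and hyaluronan together. In white matter, versican and brevican, with tenascin-R and the link protein Hapln2, belong to the matrix around nodes of Ranvier. Cd44 is a hyaluronan receptor at the cell surface. Ptprz1 is a receptor tyrosine phosphatase that carries chondroitin sulfate and is abundant in OL precursor cells (OPCs) and astrocytes.

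Of the genes compared, *Vcan*, *Hapln2* and *Cd44* were lower in the *Tcf7l2*ΔHMG library by more than 1.5-fold, and none was higher by that amount. The abundant matrix genes *Bcan*, *Tnr*, *Tnc* and *Ncan* were lower by 1.23-fold or less, and *Ptprz1* was 1.28 times its control level, a difference that turned to a log2 ratio of -0.31 when each library was rescaled to the same sum over all rows. Set against all 14199 genes compared, of which 8.52% were lower and 15.4% higher by more than 1.5-fold, the count for these genes was 3 of 8 lower and 0 of 8 higher. Higher genes made up 64.4% of all calls as deposited and 6.33% after that rescaling, which placed the median of all genes at -0.61 and 7 of these genes beyond 1.5-fold lower. The sum over all rows takes in short unnamed rows, which can be listed far above their own interval. One of 66 bases at *Bcan* in the mutant was listed at 4187 FPKM with an interval of 8.35 to 20.9. *Ptprz1* kept a log2 ratio of 0.31 after centring on the median of all genes. It was 0.37 at the same 75th percentile and 0.29 with named rows alone rescaled. The median log2 ratio of mutant over control of the 8 genes was -0.29, beside a median of 0.05 over all genes compared. A negative ratio was found in 7 of the 8 genes and in 45.4% of all genes compared. Among genes with at least 5 FPKM in at least 1 library, 2 of 7 (*Vcan* and *Cd44*) were lower and 0 of 7 higher, beside 8.44% lower and 12.2% higher of 10535 genes. Log2 ratios were computed after 0.1 FPKM was added to both values, which understates differences of low genes.

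**Figure D1:**
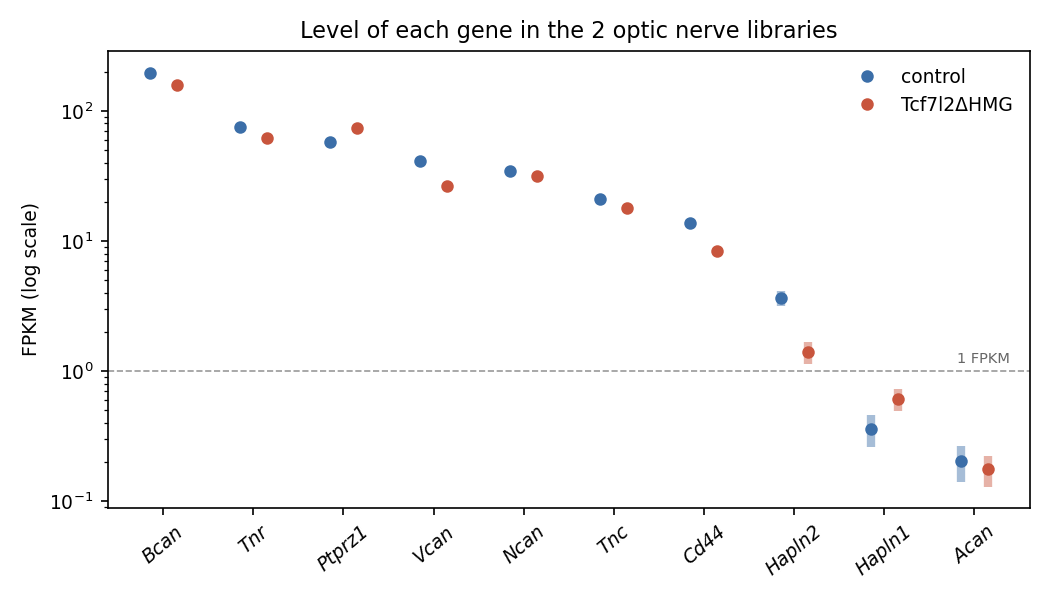
Level of each of the 10 genes in FPKM on a log axis, in the control library (blue) and the *Tcf7l2*ΔHMG library (red). Points are the FPKM, bars the Cufflinks interval within the library (narrower than the point for abundant genes), and the dashed line is 1 FPKM. Levels span from 194 FPKM for *Bcan* to about 0.2 FPKM for *Acan*, and *Hapln1* and *Acan* lie below the line in both libraries.

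*Bcan*, which encodes brevican, was the most abundant of the 10 genes in both libraries. It was at 194.1 FPKM in control nerve (interval 192.4 to 200.6) and 158.2 FPKM in mutant nerve (157.2 to 163.3), a log2 ratio of -0.29. *Vcan*, which encodes versican, a lectican made by OPCs and other cells, was at 41.0 FPKM in control nerve (39.3 to 42.6) and 26.3 FPKM in mutant nerve (25.9 to 27.3). *Vcan* was thus 1.56-fold lower, with a log2 ratio of -0.64 that could lie between -0.71 and -0.53 when the ends of the intervals were combined. That range included the 1.5-fold limit, and 7.39% of all genes compared had a lower ratio.

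*Ncan* encodes neurocan, a lectican made by neurons and astrocytes. Its level was 34.7 FPKM in control nerve (33.7 to 36.1) and 31.8 FPKM in mutant nerve (31.1 to 33.0), which is a log2 ratio of -0.12. The control interval of *Ncan* began just above the end of the mutant interval. *Acan*, which encodes aggrecan, the lectican of cartilage and perineuronal nets, was at 0.202 FPKM in control nerve (0.140 to 0.266) and 0.179 FPKM in mutant nerve (0.129 to 0.225). Among the 10 genes, only *Acan* had intervals that overlapped between the libraries. Intervals did not overlap for 9 of the 10, nor for 52.4% of all genes compared, a set that leaves out *Acan* and *Hapln1*. In the control the interval spanned 2.12% of the level on each side for *Bcan* and 12.9% for *Hapln2*, so intervals of abundant genes part more easily.

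The make-up of the lecticans does not depend on how the libraries are scaled to each other. *Bcan* took 71.9% of the summed lectican FPKM in control nerve and 73.1% in mutant nerve, with ranges that overlapped (70.9 to 73.3 and 72.2 to 74.1). The share of *Vcan* was 15.2% in control nerve (14.2 to 15.8) and 12.1% in mutant nerve (11.6 to 12.6). *Ncan* took 12.8% in control nerve (12.2 to 13.5) and 14.7% in mutant nerve (14.0 to 15.3). The ranges of *Vcan* and of *Ncan* did not overlap between libraries, and *Ncan* passed *Vcan* in mutant nerve. The summed lectican level was 269.9 FPKM in control nerve and 216.5 FPKM in mutant nerve.

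*Hapln2*, the link protein of nodes of Ranvier, differed most in size among the 10 genes. It was at 3.66 FPKM in control nerve (3.19 to 4.14) and 1.41 FPKM in mutant nerve (1.14 to 1.69), 2.59-fold lower, with a log2 ratio of -1.31. Combining the interval ends put the log2 ratio between -1.77 and -0.88, and 2.49% of all genes compared had a lower ratio. The *Hapln2* row did not cover the same bases in both libraries. In the mutant its lower coordinate lay 962 bases further along, and an unnamed row of 665 bases, at chr3:87824522-87825186 of mm9, lay over the missing stretch with 2.06 FPKM. Counting that row in, as its interval midpoint weighted by its length over that of the longest coding transcript, gave *Hapln2* 2.08 FPKM in mutant nerve and a log2 ratio of -0.79, still lower by more than 1.5-fold.

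*Hapln1*, the link protein of cartilage and perineuronal nets, had a ratio above 0 as deposited, which was 0.05 when all rows were rescaled to 1 sum. Its level was 0.362 FPKM in control nerve (0.262 to 0.462) and 0.606 FPKM in mutant nerve (0.491 to 0.726), with a log2 ratio of 0.61 that could lie between 0.07 and 1.19. Since it was below 1 FPKM in both libraries it was counted in no direction. The ratio of *Hapln2* to *Hapln1* within a library was 10.1 in control nerve (6.91 to 15.8) and 2.33 in mutant nerve (1.57 to 3.43), and 3.43 in the mutant with the unnamed row counted in.

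Each lectican gene of the mouse has a link protein gene as neighbour, and the files place all 4 such pairs. On chromosome 3 of mm9, *Bcan* (87791453 to 87804278) and *Hapln2* (87824522 to 87831433) were 20.2 kb apart. On chromosome 13, *Hapln1* (89680241 to 89751437) and *Vcan* (89794915 to 89882117) were 43.5 kb apart. *Hapln4* lay 2222 bases from *Ncan* (chromosome 8, 72616984 to 72644743), and *Hapln3* lay 1927 bases from *Acan* (chromosome 7, 86198369 to 86259985). *Bcan* and *Hapln2* had log2 ratios of -0.29 and -1.31, and *Vcan* and *Hapln1* had -0.64 and 0.61. *Hapln4* was at 0.279 FPKM in control nerve and 0.490 in mutant nerve, and *Hapln3* at 1.24 and 0.815, with ranges of the log2 ratio that included 0 for both.

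Tenascins are large oligomeric matrix glycoproteins that bind lecticans. *Tnr*, the tenascin of OL lineage cells and some neurons, was at 75.5 FPKM in control nerve (74.5 to 76.6) and 61.8 FPKM in mutant nerve (interval 61.8 to 63.6, with the value just below its lower bound), a log2 ratio of -0.29. *Tnc*, made mainly by astrocytes and OPCs in development, was at 20.9 FPKM in control nerve (19.9 to 22.0) and 18.0 FPKM in mutant nerve (17.5 to 18.8), a log2 ratio of -0.21. Both were lower in the mutant with intervals that did not overlap, and neither reached 1.5-fold. *Tnr* lies on chromosome 1 at 161453719 to 161862412 and *Tnc* on chromosome 4 at 63620819 to 63708049 of mm9, as given in the control. The ratio of *Tnr* to *Tnc* was 3.61 in control nerve (3.39 to 3.85) and 3.43 in mutant nerve (3.29 to 3.63), with overlapping ranges.

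*Cd44* (chromosome 2, 102651300 to 102741822) was at 13.9 FPKM in control nerve (13.0 to 14.7) and 8.33 FPKM in mutant nerve (7.81 to 8.88). It was 1.67-fold lower, with a log2 ratio of -0.73 between -0.91 and -0.55, a range that included the 1.5-fold limit, and 5.96% of all genes compared had a lower ratio. *Ptprz1* (chromosome 6, 22825479 to 23002916) was at 57.8 FPKM in control nerve (56.7 to 59.9) and 74.1 FPKM in mutant nerve (72.8 to 75.8). Its log2 ratio of 0.36 (0.28 to 0.42) was above that of 74.7% of all genes compared, and it turned to -0.31 when all rows were rescaled to 1 sum. With named rows alone rescaled it was 0.29. Among the 8 genes compared, *Ptprz1* alone had a positive ratio as deposited.

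**Figure D2:**
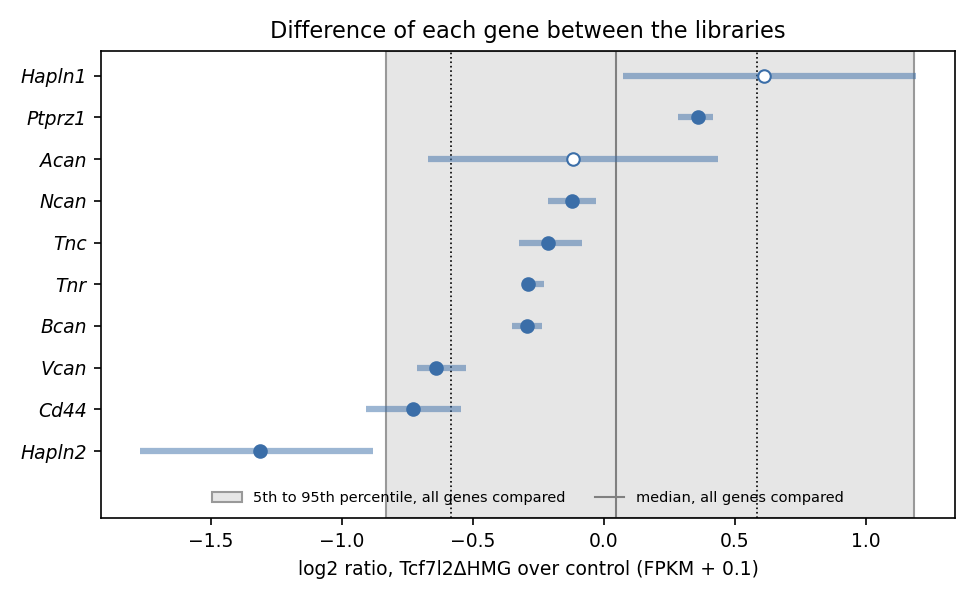
Log2 ratio of *Tcf7l2*ΔHMG over control for each of the 10 genes, after 0.1 FPKM was added, as deposited. Points are the ratio (open for the 2 genes below 1 FPKM), bars the range from combining interval ends, dotted lines 1.5-fold, and the grey band the 5th to 95th percentile of all genes compared (-0.83 to 1.18). *Hapln2*, *Cd44* and *Vcan* lie left of the lower dotted line and *Ptprz1* lies right of 0, which it leaves for -0.31 when all rows are rescaled to 1 sum. With named rows alone rescaled, *Ptprz1* is at 0.29.

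Since the HMG box removed in the mutant binds DNA, the promoters of the 3 genes lower by more than 1.5-fold are shown, with that of *Tnr*, which held the most matches. Sequences are the 250 bases before the annotated start in RefSeq (GRCm38.p6), which had a promoter for all 10 genes. They are written 5′ to 3′ on the gene's strand. The letters CTTTG, shared by the motifs of TCF/LEF and SOX factors, were searched on both strands, and a match is in capitals, as CAAAG where it lies on the other strand. The windows are chr3:88027512-88027761 (minus strand) for *Hapln2*, chr13:89742513-89742762 (minus) for *Vcan*, chr2:102901666-102901915 (minus) for *Cd44* and chr1:159523519-159523768 (plus) for *Tnr*.
Hapln2: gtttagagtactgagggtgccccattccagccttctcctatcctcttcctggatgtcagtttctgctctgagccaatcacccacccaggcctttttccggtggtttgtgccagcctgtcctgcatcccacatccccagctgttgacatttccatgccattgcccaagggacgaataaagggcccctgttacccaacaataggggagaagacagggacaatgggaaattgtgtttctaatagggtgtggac
Vcan: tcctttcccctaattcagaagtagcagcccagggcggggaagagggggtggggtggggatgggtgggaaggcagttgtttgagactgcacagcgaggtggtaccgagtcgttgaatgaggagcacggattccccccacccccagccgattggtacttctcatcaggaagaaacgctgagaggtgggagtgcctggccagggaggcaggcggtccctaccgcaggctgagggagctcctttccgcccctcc
Cd44: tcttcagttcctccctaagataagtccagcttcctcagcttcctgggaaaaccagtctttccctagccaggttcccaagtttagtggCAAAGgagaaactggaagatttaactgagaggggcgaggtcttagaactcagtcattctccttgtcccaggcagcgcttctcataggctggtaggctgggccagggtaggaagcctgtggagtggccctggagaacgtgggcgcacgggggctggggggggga
Tnr: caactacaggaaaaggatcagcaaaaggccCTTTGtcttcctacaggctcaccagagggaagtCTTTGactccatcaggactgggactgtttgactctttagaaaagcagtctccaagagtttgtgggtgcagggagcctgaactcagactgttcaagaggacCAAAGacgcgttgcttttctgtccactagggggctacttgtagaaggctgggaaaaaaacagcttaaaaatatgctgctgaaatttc

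CTTTG was not found in the windows of *Hapln2* and *Vcan*. It was found once in that of *Cd44*, at position -163 from the start, and 3 times in that of *Tnr*, at positions -220, -187 and -87. It occurred in the windows of 5 of the 10 genes (*Bcan*, *Cd44*, *Ncan*, *Tnc* and *Tnr*). Counted by window, it was in 5 of the 11 windows of these 10 genes and in 48.6% of 32851 promoters. *Tnc* had a further window with no match. The longer CTTTGA, which contains CTTTG and is part of the TCF/LEF motif, was in the windows of *Ncan* and *Tnr* and in 13.8% of all promoters. CTTTGT, which also contains CTTTG and is part of the SOX motif, was in the window of *Tnr* and in 16.5% of all promoters. The paper gives the SOX motif with T or A as its second letter, and the form CATTG was not searched. These matches are letters only, and binding was not measured in the tables analysed here.

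In the control the levels ran, from high to low FPKM, *Bcan*, *Tnr*, *Ptprz1*, *Vcan*, *Ncan*, *Tnc*, *Cd44*, *Hapln2*, *Hapln1* and *Acan*. Intervals of neighbours in this order overlapped only for *Hapln1* and *Acan*. The mutant order differed by 2 exchanges, of *Ptprz1* with *Tnr* and of *Ncan* with *Vcan*, and no neighbours overlapped there. The ratio of *Ptprz1* to *Vcan* was 1.41 in control nerve (1.33 to 1.52) and 2.82 in mutant nerve (2.67 to 2.93). *Ptprz1* to *Tnr* was 0.765 in control nerve (0.740 to 0.804) and 1.20 in mutant nerve (1.14 to 1.23). These pairs thus changed places or moved apart whatever the scaling between libraries.

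Among the matrix genes themselves, *Vcan* to *Bcan* was 0.211 in control nerve (0.196 to 0.221) and 0.166 in mutant nerve (0.159 to 0.173). *Tnr* to *Vcan* was 1.84 in control nerve (1.75 to 1.95) and 2.35 in mutant nerve (2.27 to 2.46). *Bcan* to *Ncan* was 5.60 in control nerve (5.34 to 5.95) and 4.97 in mutant nerve (4.76 to 5.25). None of these 3 pairs of ranges overlapped. *Hapln2* to *Bcan* was 0.0189 in control nerve (0.0159 to 0.0215) and 0.00894 in mutant nerve (0.00699 to 0.0107), or 0.0129 with the unnamed row counted in. *Vcan* to *Hapln1* was 113.2 in control nerve (85.0 to 162.5) and 43.3 in mutant nerve (35.7 to 55.5).

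**Figure D3:**
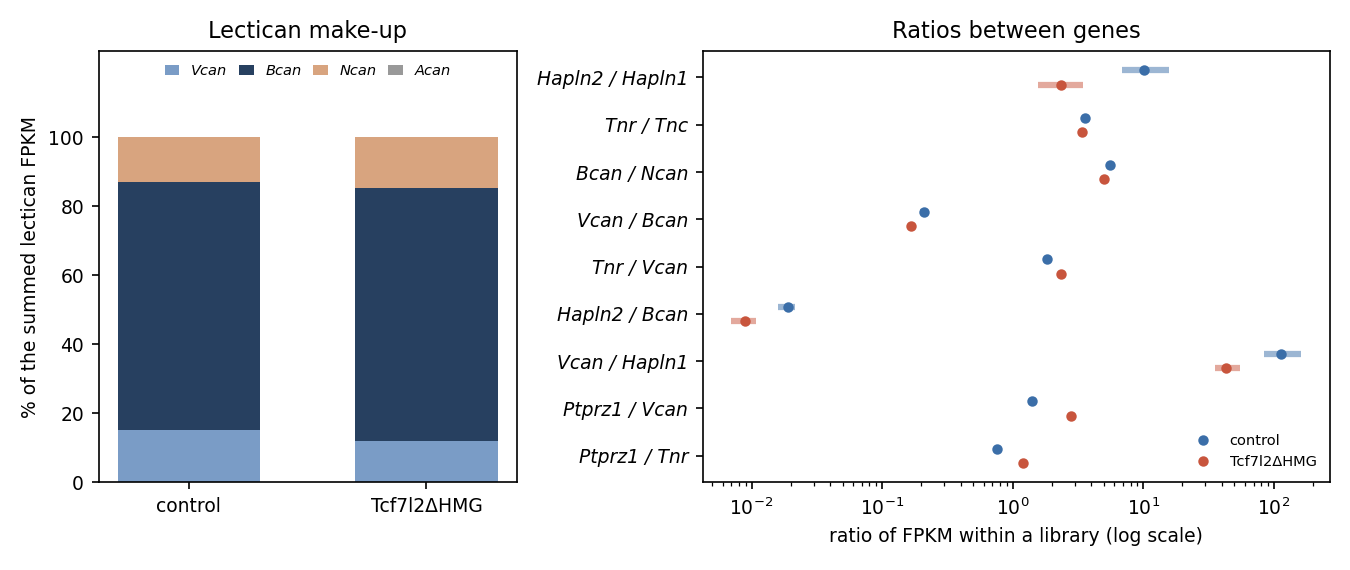
Left, the share of each lectican in the summed lectican FPKM (%) of each library, where *Acan* is too small to see. Right, ratios of FPKM between pairs of genes within a library on a log axis, with points for the ratio and bars for the range from combining interval ends. The *Vcan* share is 15.2% in control nerve and 12.1% in mutant nerve, and only *Tnr* to *Tnc* has ranges that overlap between libraries.

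In 6 lists of 112 related genes, 98 were compared, of which 25 (25.5%) were higher and 9 (9.18%) lower in *Tcf7l2*ΔHMG nerve by more than 1.5-fold, and their median log2 ratio was 0.15. Over all genes compared 15.4% were higher and 8.52% lower, so the share of lower genes in the lists was near the background. When all rows were rescaled to 1 sum this turned to 1 higher and 40 lower with a median of -0.51, so the directions below are those of the deposited FPKM. With named rows alone rescaled, 27 were higher and 10 lower, with a median of 0.08. Of other link proteins and hyaluronan receptors, 2 of 8 were higher and 1 lower. *Hmmr*, a hyaluronan receptor also known from the mitotic spindle, was at 7.06 FPKM in control nerve and 4.06 in mutant nerve. *Lyve1*, a hyaluronan receptor of lymphatic vessels and macrophages, was at 5.54 and 8.71 FPKM. *Itih2*, whose product is attached to hyaluronan as a heavy chain, was at 25.9 and 57.0 FPKM, and its relative *Itih5* at 46.8 and 60.3.

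Of genes for hyaluronan synthesis and breakdown, 2 of 8 were higher and 1 lower, but both higher genes were read from the same row. *Tmem2*, a cell surface protein with a role in hyaluronan breakdown, was at 26.0 FPKM in control nerve and 6.84 in mutant nerve, a log2 ratio of -1.91 (-2.06 to -1.77). The hyaluronidase genes *Hyal1* and *Hyal3*, which share 1 row with a neighbouring gene and cannot be told apart, were at 11.7 and 25.5 FPKM together. With rows of several names left unsplit, 23 genes of the 6 lists were higher in place of 25, and the median of this list was -0.13 in place of 0.01. *Ugp2*, which makes a sugar nucleotide precursor, was at 32.4 and 23.2 FPKM.

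Of other tenascins and proteoglycans, 5 of 21 were higher and 1 lower, with a median log2 ratio of 0.33. The small leucine-rich proteoglycans *Dcn* (137.4 FPKM in the control, 235.4 in the mutant), *Bgn* (187.1 and 270.7) and *Fmod* (103.1 and 186.6) had log2 ratios of 0.78, 0.53 and 0.86. *Tnxb*, the tenascin of connective tissue, was at 36.0 and 64.6 FPKM with intervals that overlapped. *Spock1*, a testican proteoglycan, was at 0.438 and 1.85 FPKM.

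Of chondroitin sulfate synthesis genes, 4 of 23 were higher and 3 lower, with a median of 0.12. The sulfotransferases *Chst12* (7.96 and 15.3 FPKM) and *Chst15* (9.51 and 16.3 FPKM) and the epimerase *Dse* (6.10 and 10.6 FPKM) were higher in mutant nerve. *B3galt6*, an enzyme of the linker between core protein and sugar chain, was at 1.997 FPKM in control nerve and listed at 0 in mutant nerve, so no fold is given. *Papss1*, which makes the sulfate donor, was at 80.1 and 56.5 FPKM, and *B3gat3*, another linker enzyme, at 21.5 and 22.6.

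Of lectican-cleaving proteases and their inhibitors, 4 of 15 were higher and 2 lower. *Adamts4*, a protease that cleaves brevican and versican, was at 95.8 FPKM in control nerve and 52.1 in mutant nerve, a log2 ratio of -0.88. *Adamts20*, of the same protease family, was at 2.80 and 1.55 FPKM. *Mmp2*, a gelatinase, was at 32.0 and 73.8 FPKM, and *Adamts15*, another lectican-cleaving protease, at 2.94 and 5.18. The protease inhibitors *Timp2* (171.7 and 204.8 FPKM) and *Timp3* (96.5 and 123.5 FPKM) did not reach 1.5-fold, and *Timp2* lay outside its own interval in control nerve, as did *Itih2* and *Chst12* in mutant nerve.

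Of binding partners and receptors, 8 of 23 were higher and 1 lower. *Ptn* and *Mdk* encode pleiotrophin and midkine, secreted ligands of Ptprz1. *Ptn* was at 488.7 FPKM in control nerve and 1320.1 in mutant nerve, and *Mdk* at 72.8 and 151.3, with log2 ratios of 1.43 and 1.05. The FPKM of *Ptn* lay outside its own interval in both libraries, and that of *Mdk* in the control. From combined interval ends the log2 ratio was 1.06 to 1.14 for *Ptn* and 1.26 to 1.58 for *Mdk*. Both ranges leave out the ratio of the listed FPKM. *Nfasc*, a cell adhesion molecule of the node and paranode, was at 497.1 and 254.8 FPKM, a log2 ratio of -0.96, also outside its intervals. *Rtn4r*, which encodes the Nogo receptor, was at 1.41 and 2.97 FPKM, and the receptor *Egfr* at 3.59 and 7.50.

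**Figure D4:**
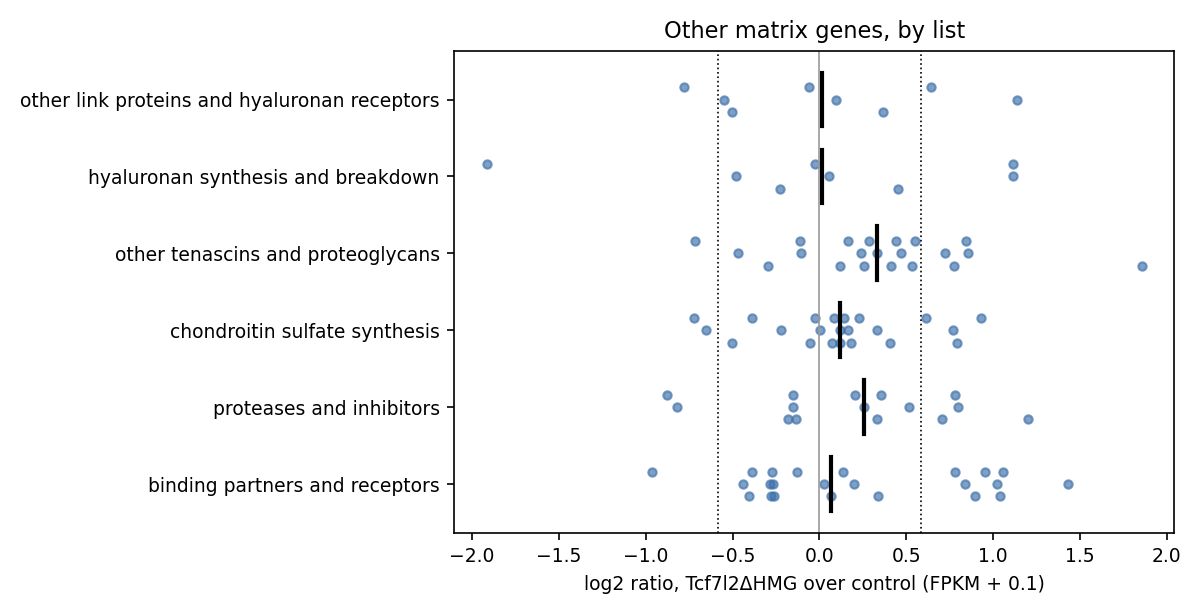
Log2 ratio of *Tcf7l2*ΔHMG over control, as deposited, for each gene compared in the 6 lists of related matrix genes. Points are genes, black ticks the list medians and dotted lines 1.5-fold. *B3galt6*, listed at 0 in mutant nerve, is not drawn but is counted in its median. The medians lie between 0.01 and 0.33, that of hyaluronan synthesis and breakdown turns to -0.13 with shared rows left unsplit, and all are below 0 when all rows are rescaled to 1 sum.

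OPC markers had a median log2 ratio of -0.27, with 2 of 8 lower and 0 higher by more than 1.5-fold, and their summed level was 380.1 FPKM in control nerve and 286.4 in mutant nerve. *Gpr17*, of committed OPCs, held most of that sum, at 235.0 and 155.8 FPKM, and *Lhfpl3* was at 37.2 and 31.6. The 2 that were lower by more than 1.5-fold were *Gpr17* and *Neu4*. Of the 8, 7 had a negative log2 ratio, among them *Pdgfra* at -0.09 (-0.25 to 2.19). *C1ql1*, outside its own interval in both libraries, had a positive one of 0.35. Mature OL markers had a median of -0.83, with 7 of 11 lower and 0 higher. Among them *Mobp*, a myelin gene, was at 2959 and 719 FPKM. *Vcan*, *Bcan*, *Tnr* and *Hapln2*, which OL lineage cells are known to express, had ratios of -0.64, -0.29, -0.29 and -1.31 beside these OPC and mature OL markers. *Ptprz1* and *Tnc*, which OPCs and astrocytes express, had ratios of 0.36 and -0.21. *Cd44*, put in neither group, had a ratio of -0.73. The part of the marked cells in the levels of any of these genes was not tested.

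Markers of cells outside the OL lineage differed as well, with medians above 0 for astrocytes, microglia and meningeal fibroblasts that turned to -0.33, -0.42 and -0.09 when all rows were rescaled to 1 sum. With named rows alone rescaled, those medians were 0.27, 0.17 and 0.51. Astrocyte markers had a median of 0.34 (3 of 12 higher, 0 lower), with a summed level of 5628.9 FPKM in control nerve and 6719.3 in mutant nerve, and *Gfap* and *S100b* had log2 ratios of 0.22 and 0.21. Microglia markers had a median of 0.24 (1 of 10 higher, 0 lower) and summed to 271.6 and 358.1 FPKM, with *C1qa* at 0.47 and *C1qb* at 0.58. Meningeal fibroblast markers had a median of 0.58 (5 of 10 higher, 0 lower) and summed to 7866.7 and 15610 FPKM, with *Ptgds* at 6009 and 12780 FPKM and *Igf2* at 686 and 1258. *Dcn* and *Lum* belong to this list and to the proteoglycans above. Endothelial markers had a median of -0.32 (1 of 9 higher, 2 lower) and summed to 161.9 and 134.3 FPKM, with *Cldn5*, of endothelial tight junctions, at 64.1 and 43.7. *Cdh5*, of endothelial adherens junctions, was at 20.9 and 31.6 FPKM, higher by more than 1.5-fold.

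Pericyte and smooth muscle markers had a median of -0.04 (1 of 8 higher, 1 lower), with *Tagln* listed at 0 in control nerve and at 35.3 FPKM in mutant nerve, *Rgs5* at 63.0 and 40.5 and *Pdgfrb* at 18.6 and 22.5. Neuron markers, at low levels that summed to 45.5 and 71.4 FPKM, had a median of 1.09 (5 of 7 higher, 0 lower), with *Thy1* at 18.2 and 23.1 FPKM and *Nefl* at 13.0 and 15.4. Blood markers had a median of 1.25 (5 of 5 higher) and summed to 251.7 and 630.8 FPKM, with the hemoglobin genes *Hba-a1* and *Hba-a2* on 1 shared row at 88.7 and 227.9. The FPKM of *Gfap*, *Ptgds*, *Igf2* and *Cldn5* lay outside their own intervals in both libraries, and those of *Mobp*, *C1qa*, *C1qb*, *Thy1* and the *Hba-a1* row in 1 library. Combining interval ends put the log2 ratio of *C1qa* between 0.04 and 0.36 and that of *C1qb* between 0.72 and 1.03. No marker other than *Tagln* was listed at 0 in a library. The part of these cell types in the levels of *Ptprz1*, *Cd44*, *Vcan* and the other matrix genes was not tested.

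**Figure D5:**
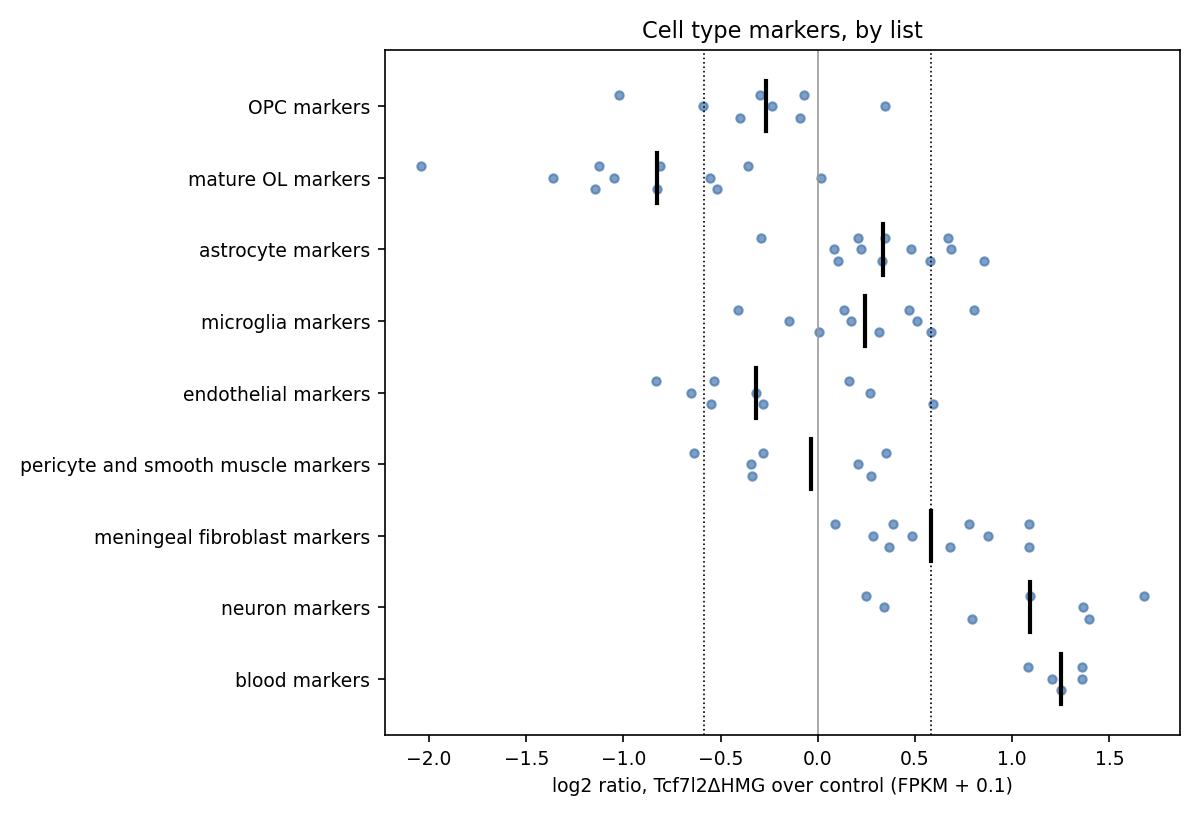
Log2 ratio of *Tcf7l2*ΔHMG over control, as deposited, for each marker compared in 9 cell type lists. Points are genes, black ticks the list medians and dotted lines 1.5-fold, and *Tagln*, listed at 0 in the control, is not drawn. Mature OL markers have a median of -0.83, while blood and neuron markers have medians of 1.25 and 1.09, and the astrocyte, microglia and fibroblast medians turn below 0 when all rows are rescaled to 1 sum. With named rows alone rescaled, those medians stay above 0.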

How the data were processed

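RNA-seq was done on optic nerves at postnatal day 12 from control and *Tcf7l2*ΔHMG mice (1 library each). The authors computed the deposited FPKM with a confidence interval and a status per row. The submitters' processing notes name TopHat, Cufflinks and mm9. Versions and the gene annotation are not given in the sources used here.

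Rows naming several genes were counted for each (618 in the control, 644 in the mutant), rows of a symbol were summed, and unnamed rows were left out. Genes with status OK in both libraries and at least 1 FPKM in at least 1 were compared as log2 of mutant over control after 0.1 FPKM was added, with python 3.11.15 and pandas 2.3.3. The limit was 1.5-fold, and the counting was tested on simulated data. Positions are those of mm9 in the files. Promoters are from RefSeq (GRCm38.p6) and were not joined to them.

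Genes and lists were chosen with earlier results of these data known. Named genes are the 10 genes, *Tcf7l2*, from each matrix list up to 4 genes beyond 1.5-fold and the 2 most abundant in the control, and from each marker list the 2 most abundant. A marker that this rule names and the summed level of its list are not reported here. Alternatives were other pseudocounts, scalings, filters, fold limits and row rules.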

Additional observations from a re-analysis of the deposited data

Results flagged for a closer look

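An unnamed row of 665 bases at *Hapln2*, outside the rows compared, carried signal in the *Tcf7l2*ΔHMG library (interval midpoint 1.71 FPKM, interval 1.05 to 2.37) and had no counterpart in the control, where the *Hapln2* row covered those bases.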

How the results depend on the processing

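No paired analysis was possible because the labels carry no replicate numbers and each genotype had 1 library, and for that reason no replicate could be left out. The median log2 ratio of the genes compared (-0.29) was -0.34 after centring on the median of all genes, -0.36 when named rows were rescaled to a sum of 1000000 and -0.96 when all rows were. Rescaling all rows moved the median of all genes to -0.61, and the difference between these genes and that median was then -0.36 in place of -0.34, while *Ptprz1* turned from 0.36 to -0.31. The sum over all rows takes in short unnamed rows listed far above their own intervals, and with named rows alone rescaled *Ptprz1* was at 0.29. The share of calls that were higher was 64.4% as deposited, 58.6% after centring, 57.2% with named rows and 6.33% with all rows rescaled. With all rows rescaled, 7 of these genes were lower, and of the related matrix genes 1 was higher and 40 were lower, with a median of -0.51. Above a fold of 2, 1 of these genes (*Hapln2*) was lower, by its named row alone. With the unnamed row counted in, its log2 ratio was -0.79, short of that fold. Of the related matrix genes, 9 were higher and 2 lower above a fold of 2. With no filter on FPKM, and with named rows rescaled, 1 gene (*Hapln1*) was higher. By an alternative chosen after seeing the data, counting unnamed rows in, *Hapln2* to *Bcan* in the mutant was 0.0129. A pseudocount of 1 FPKM gave *Hapln1* 0.24 and *Hapln2* -0.95. Of single-gene ratios and list medians under all alternatives, 181 moved by no more than their intervals allow and 29 by more. Depth limits *Acan* and *Hapln1*, whose intervals spanned 19.4% to 31.0% of the level on each side. It also limits *Hapln2* in the mutant, where the interval spanned 19.3% on each side.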
